A study of Homo sapiens with 8 samples.

Results

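Endothelial tip cell genes were followed in EA.hy926 cells from which either of a pair of stretches of the super-enhancer SE12313 had been removed. The members are 8 genes known from the leading cells of vascular sprouts, ESM1, APLN, ANGPT2, CXCR4, PDGFB, UNC5B, CD34 and PLXND1, chosen by their symbols out of 27946 genes in the deposited table. For each symbol the transcript with the highest mean level over the 8 libraries was used, and all 8 members were found. EA.hy926 is an immortalized line that was made by fusing umbilical vein endothelial cells with lung carcinoma cells. After removal of ribosomal RNA, total RNA was sequenced in 2 control libraries, in 3 clonal lines with a knock-out of the enhancer E2 (ΔE2) and in 3 clonal lines with a knock-out of SE12313-b (ΔSE12313-b), a stretch of the same super-enhancer that was inactive as a reporter. All cells were grown in DMEM with serum, and the deletions were made with Cas9 and a pair of flanking guide RNAs. Each deleted line is 1 clone. The labels put the word clones beside the controls too, but do not say whether their 2 libraries came from separate clones or cultures, or whether those cells had received guide RNAs. For its proliferation assay, the study describes control cells that were given guide RNAs and grown beside the clones. Whether the sequenced controls were these cells is not stated. The p values rest on 1 estimate of the spread shared by all 3 groups. For the controls, it holds only the spread between these 2 libraries, whatever their origin. In bulk RNA, fewer cells with a transcript and less of it per cell cannot be told apart.

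A growing vessel is led by a tip cell, which extends filopodia and follows guidance cues, while the stalk cells behind it divide and form the lumen. Tip cells release signals to their neighbours, among them apelin (APLN), angiopoietin 2 (ANGPT2), PDGF-B, which attracts pericytes, and endocan (ESM1). They also carry guidance receptors at the surface, such as the netrin receptor UNC5B and the semaphorin receptor plexin D1 (PLXND1), along with the chemokine receptor CXCR4 and the sialomucin CD34. Many of these genes are known to respond to VEGF, to Notch signals between neighbouring cells and to low oxygen.

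The bases ahead of the start sites of ESM1 and APLN are shown because both genes code for secreted proteins with like levels in control cells, and only the level of ESM1 changed beyond the thresholds after a deletion. They are the 250 bases upstream of the RefSeq start, read 5′ to 3′ on the minus strand, on which both genes lie, at chr5:54281422-54281671 and chrX:128788934-128789183 of GRCh37. Capitals mark the core of the hypoxia response element, ACGTG or GCGTG, on either strand (CACGC is GCGTG on the other strand).
ESM1: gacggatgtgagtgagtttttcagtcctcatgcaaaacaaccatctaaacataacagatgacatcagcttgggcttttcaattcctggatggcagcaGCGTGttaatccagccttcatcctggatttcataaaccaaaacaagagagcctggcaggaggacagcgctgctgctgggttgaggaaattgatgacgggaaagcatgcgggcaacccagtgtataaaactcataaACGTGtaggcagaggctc
APLN: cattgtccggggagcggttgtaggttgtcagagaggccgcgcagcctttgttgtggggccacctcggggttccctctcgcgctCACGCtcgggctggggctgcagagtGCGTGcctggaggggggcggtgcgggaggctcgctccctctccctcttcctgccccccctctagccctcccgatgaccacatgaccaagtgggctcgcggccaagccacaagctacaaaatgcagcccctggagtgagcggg
Either stretch held 2 such cores, and the core occurred in 43.2% of all 35116 RefSeq windows of this length. The G+C content was 47.6% for ESM1 and 67.6% for APLN. RefSeq windows were at hand for 5 of the 8 members (ESM1, APLN, CXCR4 with 3 windows, CD34 and PLXND1). The 3 windows of CXCR4 held 1, 0 and 2 cores. The window of PLXND1 held 2 cores and that of CD34 none, and the windows of PLXND1 and CD34 extend into the transcript of the deposited table. The ETS letters CCGGAA, present in 14.5% of all windows, and the GATA letters AGATAA, present in 9.2%, were in 0 of the 7 windows of the members on both strands. A match of letters is a description of the sequence, and binding was not measured.

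The libraries held 12067557 to 19101150 reads, of which 7802376 to 13374180 fell on genes, and 13790 genes were tested. In the controls 8151528 of 12696175 and 7802376 of 12067557 reads fell on genes. In ΔE2 these were 13374180 of 19101150, 12223127 of 17124022 and 9981653 of 13616470. In ΔSE12313-b they were 12588452 of 16085524, 11147141 of 14814166 and 12463688 of 15890260. The share was thus lowest in the controls and highest in ΔSE12313-b. Levels are FPKM, reads per kilobase of transcript scaled to the library, and a change is a difference of log2(FPKM + 0.1). A gene was called when the adjusted p (limma, Benjamini-Hochberg over all genes tested) was under 0.05 and the change at least 2-fold. The libraries carried the endothelial transcripts CDH5 (64.3 to 141.1 FPKM) and TIE1 (39.1 to 56.8 FPKM), but KDR, the main VEGF receptor, did not exceed 0.292 FPKM and CLDN5 was listed at 0 in all 8. Among 11 endothelial markers 9 were tested, and their summed level was 312.1 to 312.4 FPKM in controls, 334.4 to 522.1 in ΔE2 and 334.2 to 452.9 in ΔSE12313-b. Of these, 3 were called higher (PECAM1, ERG and ESAM) and 1 lower (VWF) in ΔE2, and 2 higher (PECAM1 and ERG) and 1 lower (VWF) in ΔSE12313-b. With every library centred on its median log2 ratio, 1 was called higher and 1 lower in each. Of all genes tested, 11.2% were called higher and 8.36% lower in ΔE2, and 14.7% and 7.83% in ΔSE12313-b. The summed level of 10 epithelial markers was 362.6 to 364.3 FPKM in controls, 1087 to 1212 in ΔE2 and 812.9 to 1071 in ΔSE12313-b. In both deletions 3 of the 4 tested were called higher, the keratins KRT7, KRT8 and KRT18 (without KRT18 in ΔSE12313-b, at 0.86, when libraries were centred), while CDH1 and NKX2-1 were at 0. These 3 keratins made up nearly all of the sums. MUC1, also tested, changed by -0.05 and -0.17 and was not called. EPCAM, too low to be tested, was at 0.554 and 0.243 FPKM in the controls and at most at 0.215 in the clones. The summed level of 6 mural markers was 28.4 to 29.9 FPKM in controls, 18.0 to 39.1 in ΔE2 and 44.1 to 66.1 in ΔSE12313-b, with PDGFRB at most at 0.155. Of the 2 mural markers tested, ACTA2 was called lower in both deletions and RGS5 higher in ΔSE12313-b, the latter not with centred libraries (0.89). The part of these shifts in the results on tip cell genes was not tested. The median change of all genes tested was 0.14 in ΔE2 and 0.27 in ΔSE12313-b against control, and -0.11 between the deletions. Levels were scaled to the whole library and not to its reads on genes. The part of the differing share of reads on genes in these medians, and in calls that changed with centring, was not tested.

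In control cells the members spread over a wide range of levels per length. APLN (60.3 FPKM ± 2.86, SD, n = 2) and ESM1 (60.2 ± 2.84) were level with each other within their spread, and each was above 95.2% of the genes tested. PLXND1 followed at 21.8 ± 0.229 FPKM and PDGFB at 5.04 ± 0.646. CD34 (0.961 ± 0.00919) and UNC5B (0.951 ± 0.00778) were again not apart, with 12.3% and 12.2% of the genes tested below them. ANGPT2 was at 0.164 ± 0.117 FPKM and CXCR4 at 0. In ΔE2 (n = 3) the order of the means was APLN at 73.7 ± 31.8, ESM1 at 44.8 ± 18.1, PLXND1 at 20.8 ± 8.83, CD34 at 7.91 ± 3.30, PDGFB at 5.17 ± 3.23, UNC5B at 0.478 ± 0.176 and ANGPT2 at 0.208 ± 0.0981 FPKM. CD34 was ahead of PDGFB in each of the 3 clones, whereas PLXND1 was ahead of ESM1 in ΔE2 replicate 2 only. In ΔSE12313-b the means were 46.6 ± 18.8 for APLN, 31.8 ± 7.68 for PLXND1, 20.5 ± 6.87 for ESM1, 3.16 ± 1.27 for PDGFB, 2.39 ± 1.11 for CD34, 0.452 ± 0.173 for UNC5B and 0.0380 ± 0.0145 FPKM for ANGPT2. Here ESM1 stood behind PLXND1 in ΔSE12313-b replicates 1 and 3 and level with it in replicate 2 (25.6 and 25.8 FPKM), and APLN was ahead of PLXND1 and PDGFB ahead of CD34 in each of the 3 clones.

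**Figure D1:**
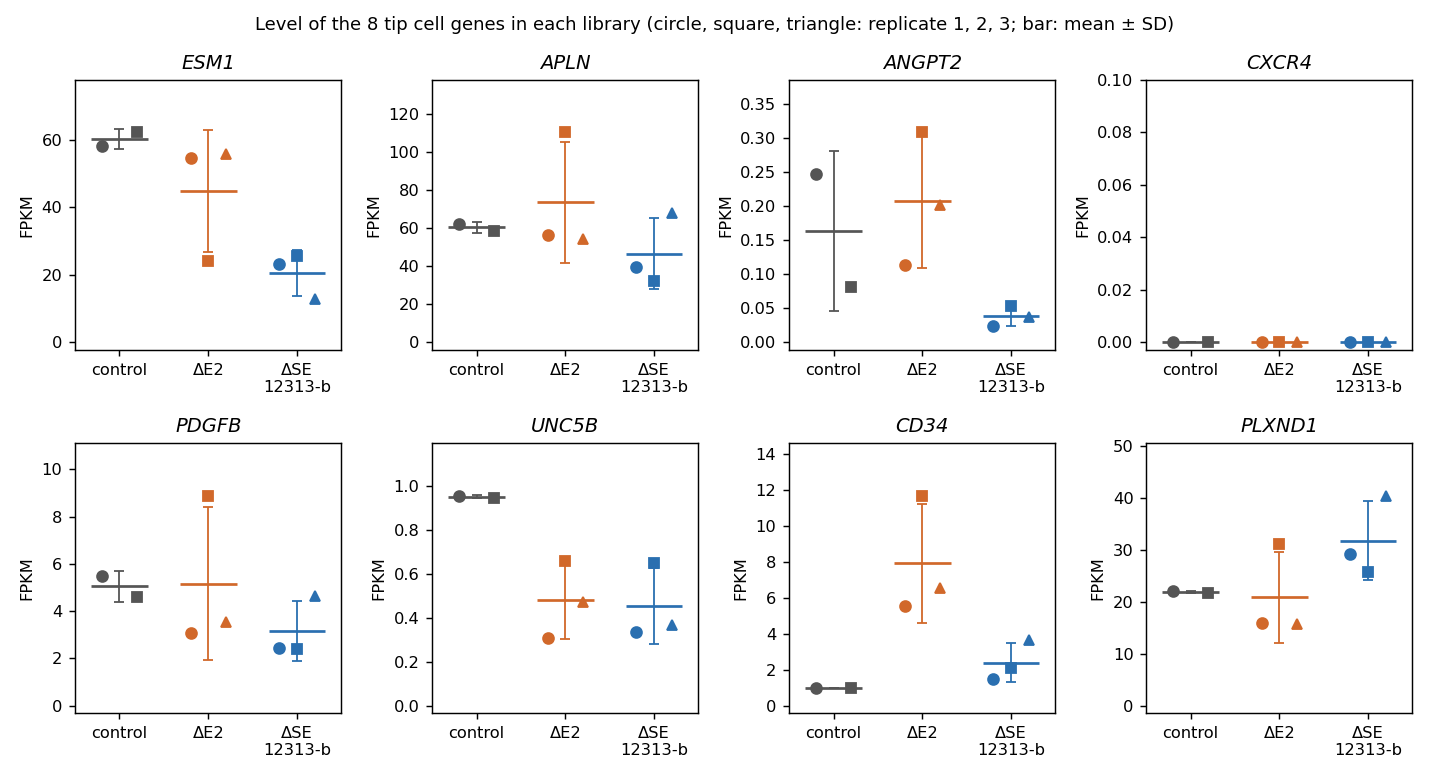
Level of each tip cell gene in FPKM (linear axis, a scale of its own per gene) in 2 control, 3 ΔE2 and 3 ΔSE12313-b libraries; points are libraries, horizontal lines are group means and error bars are SD. All ΔSE12313-b clones are below the controls in ESM1, all ΔE2 clones are above them in CD34, all clones of both deletions are below them in UNC5B, and CXCR4 is at 0 throughout.

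ESM1, a secreted proteoglycan and among the most used markers of tip cells, fell in ΔSE12313-b. Its transcript (NM_001135604, chr5:54273695-54281414, minus strand) was at 58.2 and 62.2 FPKM in the controls, at 54.6, 23.9 and 55.7 in ΔE2 and at 23.3, 25.6 and 12.7 in ΔSE12313-b replicates 1, 2 and 3. All 6 clones were below both controls, but ΔE2 replicates 1 and 3 only slightly, and ΔE2 replicate 2 lay within the range of ΔSE12313-b. The change in ΔSE12313-b was -1.61 (SE 0.411, 95% interval -2.56 to -0.66, adjusted p = 0.01041). This call was kept in all alternatives but 1: without control replicate 2 the change was -1.56 with an adjusted p of 0.05456. In ΔE2 the change was -0.53 (-1.48 to 0.43, adjusted p = 0.3111), or -0.12 without ΔE2 replicate 2. The level in ΔE2 exceeded that in ΔSE12313-b by 1.08 (0.23 to 1.94, adjusted p = 0.06499), which did not pass. Without ΔE2 replicate 2 this difference was 1.49 with an adjusted p of 0.01071 and passed, as it did with limma's voom on the reads recovered from all libraries (1.09, adjusted p = 0.03723).

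APLN, the ligand of the apelin receptor, did not pass in any comparison. Its transcript (chrX:128779236-128788933, minus strand) was at 62.3 and 58.3 FPKM in the controls, at 56.2, 110.4 and 54.4 in ΔE2 and at 39.6, 32.3 and 67.9 in ΔSE12313-b. ΔE2 replicate 2 and ΔSE12313-b replicate 3 were above both controls, and the other 4 clones were below them. The changes were 0.21 (-0.65 to 1.07, adjusted p = 0.6607) in ΔE2 and -0.45 (-1.31 to 0.42, adjusted p = 0.3301) in ΔSE12313-b, and the difference between the deletions was 0.65 (-0.12 to 1.42, adjusted p = 0.1893). Without ΔE2 replicate 2 the change in ΔE2 turned to -0.12. These intervals still hold changes of about 2-fold. The apelin receptor APLNR and its other ligand APELA were listed at 0 in all libraries.

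PDGFB, the ligand by which tip cells attract pericytes, was highest in the same clone of each deletion as APLN. Its transcript (chr22:39619364-39636914, minus strand) was at 5.50 and 4.59 FPKM in the controls, at 3.09, 8.89 and 3.52 in ΔE2 and at 2.45, 2.41 and 4.63 in ΔSE12313-b. ΔE2 replicate 2 was above both controls and ΔSE12313-b replicate 3 between them, with the other 4 clones below. The changes were -0.12 (-1.18 to 0.94, adjusted p = 0.8344) in ΔE2, -0.72 (-1.78 to 0.34, adjusted p = 0.209) in ΔSE12313-b and 0.59 (-0.35 to 1.54, adjusted p = 0.3264) between them. The change in ΔE2 was -0.59 without ΔE2 replicate 2, and it turned positive, by at most 0.16, when any of control replicate 1 or ΔE2 replicates 1 and 3 was left out. The receptors PDGFRA and PDGFRB did not exceed 0.021 and 0.155 FPKM.

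ANGPT2, the angiopoietin that tip cells release and that competes with ANGPT1 for the receptor TEK, was close to the limit of detection. It had 16 and 5 reads in the controls, 11, 27 and 14 in ΔE2, and 2, 4 and 3 in ΔSE12313-b (0.0240 to 0.309 FPKM, chr8:6357175-6420784, minus strand). Each ΔSE12313-b clone was below every other library, whereas ΔE2 and control overlapped. These levels were too low for the main set of genes. Among the 17896 genes above 0 in at least 2 libraries, the change was -0.87 in ΔSE12313-b (-1.70 to -0.03, adjusted p = 0.08148) and 0.25 in ΔE2 (-0.59 to 1.08, adjusted p = 0.6128). The level in ΔE2 exceeded that in ΔSE12313-b by 1.11 (SE 0.319, 0.37 to 1.86, adjusted p = 0.04959), just past both thresholds and on few reads. ANGPT2 shares 658 of its 6626 exon bases with MCPH1 on the opposite strand. The study names a directional library kit, but the sources used here do not state whether the table was counted by strand. Reads in these bases therefore cannot be assigned.

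CXCR4, the receptor of the chemokine CXCL12, had no read in any of the 8 libraries in all 5 of its transcripts. At these depths 3 reads, the limit that a count of 0 allows, would be 0.0834 to 0.132 FPKM, which covers counting error only. A value of 0 for all libraries was shared by 8385 of the 27946 genes, while 0 of 14 housekeeping genes had a 0 in any library. CXCL12 and its other receptor ACKR3 were listed at 0 as well.

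UNC5B, a receptor for netrins by which endothelial filopodia are repelled, was low and below both controls in all clones. Its transcript (chr10:72972292-73062635, plus strand) was at 0.956 and 0.945 FPKM in the controls, at 0.306, 0.657 and 0.472 in ΔE2 and at 0.336, 0.651 and 0.368 in ΔSE12313-b, from 37 to 83 reads a library. The groups of both deletions covered nearly the same range, and the replicates numbered 2 were the nearest to control in either. The changes were -0.91 (-1.76 to -0.06, adjusted p = 0.06883) in ΔE2 and -0.97 (-1.82 to -0.12, adjusted p = 0.05037) in ΔSE12313-b and did not pass. Both passed with each library centred on its median (-1.06, adjusted p = 0.03944, and -1.26, adjusted p = 0.01974) and with limma's voom on the recovered reads (-1.08, adjusted p = 0.01683, and -1.14, adjusted p = 0.0126). The change also passed without ΔE2 replicate 2 in ΔE2 (-1.12, adjusted p = 0.0403) and without ΔSE12313-b replicate 2 in ΔSE12313-b (-1.22, adjusted p = 0.02637). Between the deletions the difference was 0.07 (-0.70 to 0.83, adjusted p = 0.9076).

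PLXND1, the plexin through which semaphorins steer sprouts, did not pass in any comparison. Its transcript (chr3:129274056-129325582, minus strand) was at 22.0 and 21.7 FPKM in the controls, at 15.8, 31.0 and 15.7 in ΔE2 and at 29.1, 25.8 and 40.5 in ΔSE12313-b. All ΔSE12313-b clones were above both controls, while ΔE2 replicate 2 was above and the other 2 clones below. The changes were -0.14 (-0.86 to 0.57, adjusted p = 0.7133) in ΔE2 and 0.51 (-0.20 to 1.23, adjusted p = 0.1829) in ΔSE12313-b, with -0.66 (-1.29 to -0.02, adjusted p = 0.118) between them. Its sign in ΔE2 depended on the clone: the change was 0.0146 without ΔE2 replicate 1, 0.0226 without replicate 3 and -0.47 without replicate 2. Without ΔE2 replicate 2 the difference between the deletions was -0.98 with an adjusted p of 0.009345, under 2-fold.

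CD34, a sialomucin of blood progenitors and of small vessels that is found on the filopodia of tip cells, rose in both deletions, and further in ΔE2. Its transcript (chr1:208059883-208084683, minus strand) was at 0.967 and 0.954 FPKM in the controls, at 5.54, 11.7 and 6.51 in ΔE2 and at 1.48, 2.07 and 3.62 in ΔSE12313-b. In reads, this is 32 and 30 in the controls, 276, 521 and 231 in ΔE2, and 62, 80 and 150 in ΔSE12313-b. The 3 groups did not overlap, with ΔSE12313-b between control and ΔE2. The change was 2.84 in ΔE2 (SE 0.398, 1.92 to 3.76, adjusted p = 0.0006544), which was called in all 17 alternatives (2.12 to 3.06). In ΔSE12313-b the change was 1.14 (0.22 to 2.06, adjusted p = 0.038). This call rested on the settings and was lost in 11 of 17 alternatives, with changes of 0.74 to 1.42 and adjusted p values of 0.01944 to 0.1418 over all of them. Among libraries, it was lost without control replicate 1 (1.15, adjusted p = 0.1186), control replicate 2 (1.13, adjusted p = 0.1239), ΔE2 replicate 3 (1.14, adjusted p = 0.05494), ΔSE12313-b replicate 2 (1.19, adjusted p = 0.06366) or ΔSE12313-b replicate 3 (0.80, adjusted p = 0.08072). It was also lost with each library centred on its median (0.85, adjusted p = 0.1047) and with the replicate number as a block (1.02, adjusted p = 0.06982). Limma's voom on the recovered reads lost it too (1.20, adjusted p = 0.1418). The remaining losses came with a pseudocount of 1 (0.74, adjusted p = 0.07759), with genes above 0 in at least 2 libraries (1.14, adjusted p = 0.05477) and without the trend (1.14, adjusted p = 0.05466). The level in ΔE2 exceeded that in ΔSE12313-b by 1.70 (0.88 to 2.53, adjusted p = 0.01161), called in all 17 alternatives (1.38 to 2.04).

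Thus 1 of the 6 members tested, CD34, was called higher in ΔE2 and 0 lower, where 11.2% of all genes tested were called higher and 8.36% lower. In ΔSE12313-b CD34 was called higher and ESM1 lower, against 14.7% and 7.83% of all genes. Between the deletions CD34 was called higher in ΔE2 and 0 members lower, against 1.60% and 2.63%. With each library centred on its median, UNC5B joined as lower in both deletions and CD34 was no longer called in ΔSE12313-b. The same centring changed the balance over all genes from 1544 higher and 1153 lower to 1170 and 1464 in ΔE2, from 2032 and 1080 to 1201 and 1570 in ΔSE12313-b, and from 221 and 362 to 287 and 244 between them. Clones and controls did not overlap for 3 of 6 members in ΔE2 (73.5% of all genes) and for 4 of 6 in ΔSE12313-b (75.3%), and the deletions did not overlap for 1 of 6 (40.8%). The median change of the members was -0.13 in ΔE2, -0.58 in ΔSE12313-b and 0.62 between them. Both deletions were set against the same 2 control libraries, so their changes are not independent of each other.

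**Figure D2:**
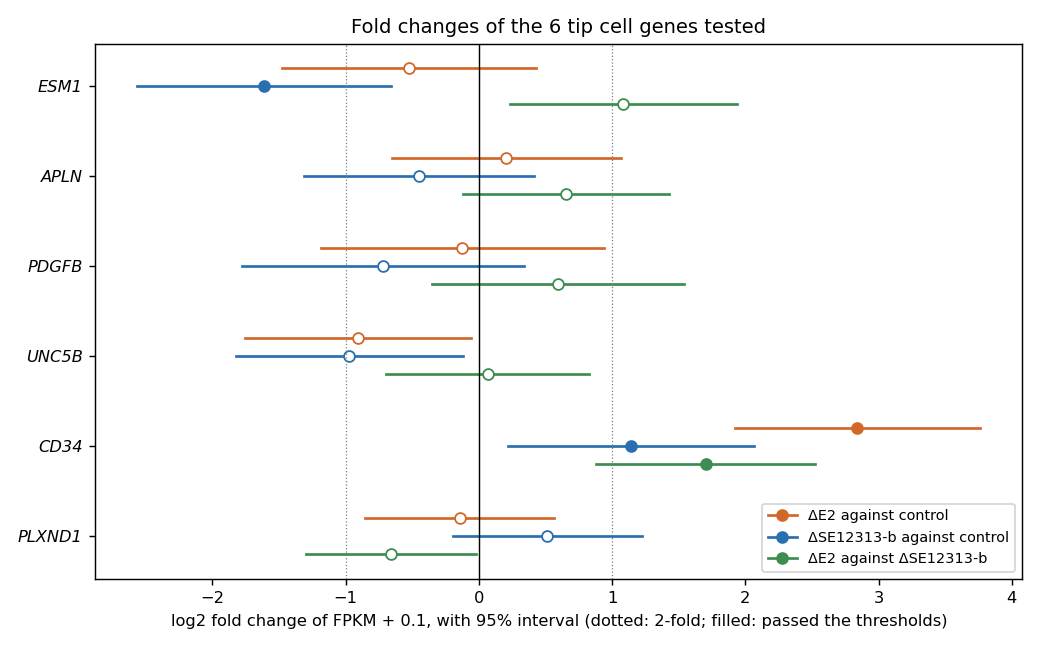
Change of log2(FPKM + 0.1) for the 6 members tested, with 95% intervals, in ΔE2 (orange) and ΔSE12313-b (blue) against control and in ΔE2 against ΔSE12313-b (green); filled points passed both thresholds and dotted lines mark 2-fold. CD34 is filled in all 3 comparisons (2.84, 1.14 and 1.70) and ESM1 in ΔSE12313-b (-1.61), while the intervals of APLN and PDGFB cross 0 in each.

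The clones of a deletion differed more in these genes than in most. Between the highest and the lowest clone, the members spanned 0.90 to 1.49 on the log2 scale in ΔE2 and 0.65 to 1.24 in ΔSE12313-b, where the median of all genes tested was 0.283 and 0.292. Each of these ranges exceeded that of 81.4% to 94.9% of genes, whereas between the controls the members differed by 0.0151 to 0.257 (median of all genes 0.0946). ΔE2 replicate 2 was the highest ΔE2 clone in APLN, PDGFB, UNC5B, CD34 and PLXND1 and the lowest in ESM1. ΔSE12313-b replicate 3 was likewise the highest of its group in APLN, PDGFB, CD34 and PLXND1 and the lowest in ESM1, but not the highest in UNC5B. In the clone where APLN, PDGFB, CD34 and PLXND1 were highest, ESM1 was therefore lowest, in either deletion. ΔE2 replicate 2 had the highest summed level of endothelial markers as well (522.1 FPKM against 334.4 and 341.5), as had ΔSE12313-b replicate 3 in its group (452.9 against 395.9 and 334.2). The part of this in the members' levels was not tested, and equal replicate numbers of different groups mark no shared sample.

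**Figure D3:**
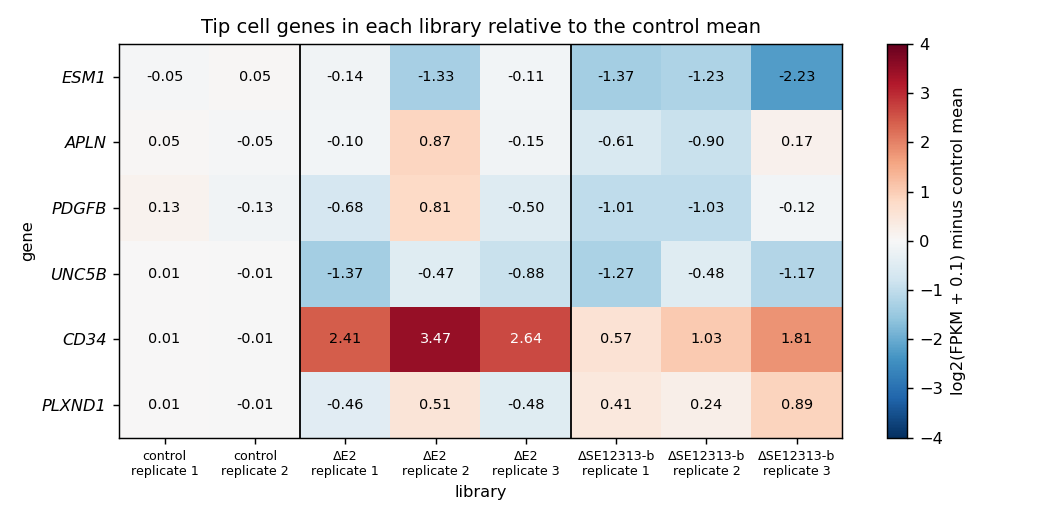
Difference of log2(FPKM + 0.1) from the control mean for the 6 members tested (rows) in each of the 8 libraries (columns), from blue (lower) to red (higher), with the value in each cell. ΔE2 replicate 2 stands at 0.87 in APLN and 0.81 in PDGFB, where ΔE2 replicates 1 and 3 are below 0, and at -1.33 in ESM1, where these are at -0.14 and -0.11.

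Of 24 other genes known from tip cells 17 were tested. ADM, the vessel-dilating peptide adrenomedullin, and LXN, an inhibitor of carboxypeptidases, rose in both deletions. ADM was at 2.54 and 2.41 FPKM in the controls, at 5.72, 4.64 and 4.96 in ΔE2 and at 9.30, 8.01 and 8.70 in ΔSE12313-b, without overlap between groups (1.01, adjusted p = 0.0002467, and 1.77, adjusted p = 1.2e-05). In ΔE2 the change of ADM fell short of 2-fold with centred libraries (0.86) and without control replicate 2 or ΔE2 replicate 1. LXN was at 4.26 and 4.49 FPKM in the controls, at 10.3, 9.49 and 13.0 in ΔE2 and at 10.2, 10.1 and 10.2 in ΔSE12313-b (1.29, adjusted p = 0.0001218, and 1.20, adjusted p = 0.0001359). The latter fell short of 2-fold with centred libraries (0.91). RGCC, a regulator of the cell cycle, fell in ΔSE12313-b, from 4.51 and 3.91 FPKM to 0.621, 0.981 and 1.14 (-2.12, adjusted p = 0.001062), and was at 2.19, 3.77 and 1.73 in ΔE2 (-0.76, adjusted p = 0.0914). Like ESM1, it was lowest in ΔSE12313-b, with a difference of 1.35 between the deletions that passed (adjusted p = 0.01514). In all, 2 genes were called higher and 0 lower in ΔE2 (11.2% and 8.36% of all genes), 2 higher and 1 lower in ΔSE12313-b (14.7% and 7.83%), and 1 higher and 2 lower between them (1.60% and 2.63%). The latter 2 are NRP1, which is also among the partners of the members (-1.14, adjusted p = 0.000523) and TP53I11 (-1.38, adjusted p = 0.04146, called in 5 of 17 alternatives and named after its values were seen). With centred libraries the counts were 1 and 2, 1 and 2, and 2 and 1. The medians of the 17 were -0.44, -0.22 and 0.01. KCNE3, PCDH17 and RAMP3 were at 0 in all libraries.

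Among 25 receptors, ligands and partners of the members 14 were tested. In ΔE2 2 of them were called higher and 1 lower (11.2% and 8.36% of all genes). In ΔSE12313-b 3 were called higher and 1 lower (14.7% and 7.83%). On the angiopoietin axis, TEK, the receptor of ANGPT2, was at 6.87 and 7.38 FPKM in the controls, at 10.8, 19.1 and 12.6 in ΔE2 and at 10.4, 8.46 and 14.1 in ΔSE12313-b. Every clone was above both controls, and the changes of 0.94 (adjusted p = 0.0188) and 0.58 (adjusted p = 0.093) were under 2-fold. PTPRB, the phosphatase that acts on TEK, rose from 1.60 and 1.81 FPKM to 5.63, 6.02 and 6.21 in ΔE2 and 5.62, 6.01 and 4.91 in ΔSE12313-b (1.75, adjusted p = 1.71e-05, and 1.64, adjusted p = 1.89e-05). ANGPT1, which activates TEK, rose in ΔSE12313-b, from 1.82 and 1.80 FPKM to 4.22, 5.11 and 4.52 (1.30, adjusted p = 0.0002681), and was at 2.06, 2.85 and 2.24 in ΔE2. TIE1, the partner of TEK, changed by -0.37 and -0.16, under 2-fold.

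On the UNC5B axis, its ligand FLRT2 rose in both deletions, from 3.73 and 3.75 FPKM to 9.89, 13.9 and 9.24 in ΔE2 and 11.1, 10.7 and 17.1 in ΔSE12313-b (1.51, adjusted p = 0.001095, and 1.73, adjusted p = 0.0004417). ROBO4, an endothelial receptor that binds UNC5B, and the netrin NTN4 went different ways. ROBO4 was at 12.8 and 13.0 FPKM in the controls, at 18.7, 32.9 and 17.6 in ΔE2 and at 8.19, 7.69 and 11.8 in ΔSE12313-b. It was above both controls in each ΔE2 clone and below them in each ΔSE12313-b clone, and only the difference between the deletions was called (1.28, adjusted p = 0.009195, and 0.99 without ΔE2 replicate 2, where it was no longer called). NTN4 had the same order, with 22.3 and 24.5 FPKM in the controls, 39.0, 41.0 and 44.1 in ΔE2 and 17.1, 18.7 and 14.9 in ΔSE12313-b (1.29 between the deletions, adjusted p = 0.0003126). NTN1 was listed at 0, and FLRT3 and DAPK1, a kinase that signals below UNC5B, did not exceed 0.083 FPKM.

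On the PLXND1 axis, the ligand SEMA3E did not exceed 0.013 FPKM. SEMA3A, which acts through neuropilins and plexins, fell in both deletions, from 34.9 and 36.3 FPKM to 14.1, 11.4 and 13.1 in ΔE2 and 15.1, 15.5 and 13.0 in ΔSE12313-b (-1.47, adjusted p = 3.4e-05, and -1.29, adjusted p = 4.96e-05). SEMA3C was at 2.60 and 2.60 FPKM in the controls, at 7.19, 3.85 and 8.03 in ΔE2 and at 2.88, 3.61 and 1.29 in ΔSE12313-b. Its difference between the deletions (1.31, adjusted p = 0.04329) was kept in 8 of 17 alternatives. The co-receptor NRP1 was at 33.8 and 35.0 FPKM in the controls, at 22.2, 26.1 and 23.2 in ΔE2 and at 55.1, 46.3 and 56.8 in ΔSE12313-b. It was below both controls in ΔE2 and above them in ΔSE12313-b, by less than 2-fold each, and the deletions differed by -1.14, which was called in all 17 alternatives. PODXL, a sialomucin related to CD34, was at 66.0 FPKM or more in each library and changed by -0.02 and 0.29, neither called, and PODXL2 was listed at 0. Of the other partners tested, PDGFA changed by -0.23 and -0.22, GIPC1, which binds the inner end of PLXND1, by 0.59 and 0.63, and the adaptor CRKL by 0.31 and 0.49, all under 2-fold. Between the deletions 3 of the 14 were called higher and 1 lower (1.60% and 2.63% of all genes). The medians of the 14 were 0.48 in ΔE2, 0.39 in ΔSE12313-b and -0.11 between them.

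**Figure D4:**
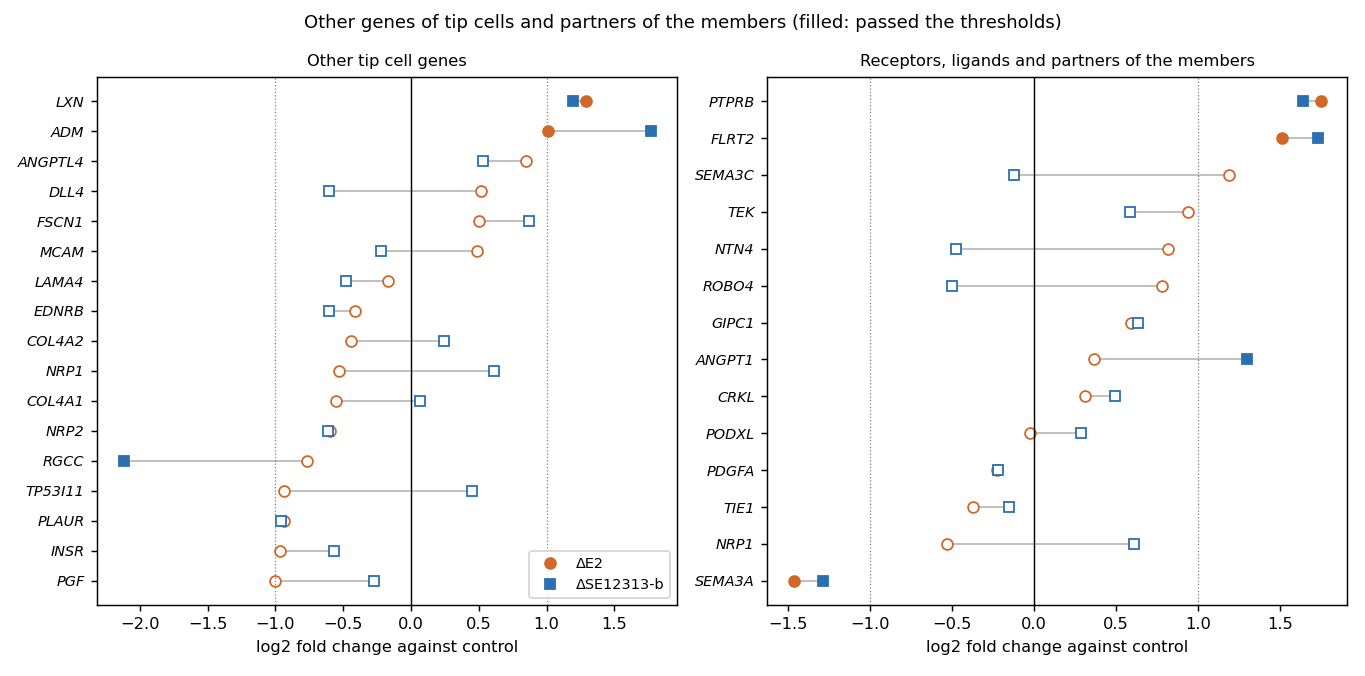
Change of log2(FPKM + 0.1) against control in ΔE2 (circles) and ΔSE12313-b (squares) for the 17 other tip cell genes tested (left) and the 14 partners of the members tested (right); filled symbols passed both thresholds and dotted lines mark 2-fold. LXN and ADM are filled on the right side of the left panel and RGCC at -2.12 on its left side, and PTPRB, FLRT2 and SEMA3A are filled for both deletions in the right panel.

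Of 14 genes of stalk or resting endothelial cells 9 were tested. In ΔE2 0 were called higher and 2 lower (11.2% and 8.36% of all genes). In ΔSE12313-b 1 was called higher and 1 lower (14.7% and 7.83%). Between the deletions 1 was called higher (ROBO4) and 0 lower (1.60% and 2.63%). HEY1, a Notch target, was at 3.13 and 2.97 FPKM in the controls, at 0.344, 1.20 and 0.514 in ΔE2 and at 1.41, 1.06 and 2.06 in ΔSE12313-b. It fell in ΔE2 (-2.15, adjusted p = 0.004452), while -1.01 in ΔSE12313-b did not pass (adjusted p = 0.0824). With centred libraries the list had 0 called higher and 2 lower in either deletion. HES1, another Notch target, was at 2.76 and 3.65 FPKM in the controls, at 3.63, 7.34 and 3.48 in ΔE2 and at 6.15, 6.87 and 14.5 in ΔSE12313-b. Its rise in ΔSE12313-b (1.39, adjusted p = 0.02285) was no longer called with centred libraries or without either control. VWF, the clotting factor of resting endothelium, fell in both deletions, from 2.02 and 1.83 FPKM to 0.385 to 0.778 in ΔE2 and 0.346 to 0.831 in ΔSE12313-b (-1.72, adjusted p = 0.007707, and -1.80, adjusted p = 0.005277), the former not called without control replicate 1. With a pseudocount of 1, which shrinks the changes of low genes, VWF in both deletions, ADM in ΔE2, ANGPT1 in ΔSE12313-b and RGCC between the deletions were no longer called. The medians of the 9 genes were 0.50, 0.34 and -0.16.

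For each member called in a deletion, the genes with the most similar profile over the 8 libraries were sought among 12027 genes with a mean of at least 1 FPKM. The measure was the root mean square difference of log2 levels after each profile had been centred on its own mean. For ESM1 these were FAM167A (0.196) and the small nucleolar RNA SNORD63B (0.203). FAM167A was at 6.90 and 7.46 FPKM in the controls, at 6.21, 2.07 and 6.88 in ΔE2 and at 3.30, 3.55 and 1.45 in ΔSE12313-b, thus low in ΔE2 replicate 2 and lowest in ΔSE12313-b replicate 3, as ESM1 was. For CD34 the nearest were CCL2, a chemokine for monocytes (0.418), and the antisense transcript HAGLR (0.485). CCL2 was at 4.99 and 4.80 FPKM in the controls, at 30.3, 56.4 and 46.3 in ΔE2 and at 12.7, 22.1 and 16.3 in ΔSE12313-b, in the same order of groups as CD34. These likenesses describe 8 libraries that share groups and clones.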

How the data were processed

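Total RNA depleted of rRNA was sequenced from 8 libraries of EA.hy926 (2 control, 3 ΔE2, 3 ΔSE12313-b), grouped by their titles. The submitters' processing notes name Trim Galore 0.4.4, STAR 2.5.4b, featureCounts (without a version) and GRCh37. The study describes read counts by featureCounts with a Gencode annotation, which is not the RefSeq set of the deposited table. The authors deposited 1 table of FPKM per RefSeq transcript (65572 rows), and its program, RefSeq release and strand handling are not given in the sources used here. FPKM times transcript length gave whole reads for at least 99.97% of values (tolerance 0.1 read), used for depth, floors (3 reads) and voom only.

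The test took genes that reached 0.5 FPKM in 2 or more libraries, on the scale of log2(FPKM + 0.1). It was limma's (version 3.58.1, R 4.3.3). One model held 3 groups, with a variance trend, two-sided tests and Benjamini-Hochberg adjustment over 13790 genes. Since the deposited values are FPKM, this replaced the count test of the authors. The trimmed-mean normalization of library sizes that the authors describe was not applied in the main fit, which took the FPKM as deposited. The fit was tested on simulated counts with the same dispersion in every group, which does not cover the unequal spread of controls and clones. No libraries were imputed or dropped. Alternatives were pseudocounts of 0.01 and 1, FPKM above 0, a mean FPKM of at least 1, centred libraries, the longest transcript, a replicate block, no trend, voom and each library left out, 17 in all. The members, the lists, the rule for naming genes and the alternatives were chosen with earlier results of these data known. The rule names the members, genes of the 3 related lists called against control, receptors and ligands of the members, and the 2 genes nearest to each called member. Beside the 25 partners, 1 further gene was taken out of that list and is not reported here. Promoter windows are RefSeq's (GRCh38.p14), each matched once in GRCh37. Same-numbered libraries of different groups did not deviate together (correlations of -0.0804 to 0.107), so the numbers were not taken as pairs. The control libraries, which the labels list as 2 samples, were counted as 2. The chi-square per degree of freedom was 1.19 between them and 4.05 to 23.4 between clones of a deletion, so the spread between the controls was near counting noise and may be technical.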

Additional observations from a re-analysis of the deposited data

Results flagged for a closer look

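The level of CD34 differed between the ΔE2 clones and the ΔSE12313-b clones by the test of the difference itself. The level in ΔE2 was higher by 1.70 on the log2 scale (95% interval 0.88 to 2.53, adjusted p = 0.01161, limma with Benjamini-Hochberg adjustment), and each of the 3 ΔE2 clones was above each of the 3 ΔSE12313-b clones.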

How the results depend on the processing

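Of 303 values for single members under the 17 alternatives, 274 kept their direction and their side of the thresholds, 12 lost a call, 8 gained a call and 9 changed sign, all 9 on leaving out 1 library and with adjusted p values of at least 0.7558. Leaving out ΔE2 libraries moved the change in ΔE2 from -0.12 (replicate 2) to 0.39 (replicate 3) in APLN. Leaving out any library moved it from -0.59 (ΔE2 replicate 2) to 0.16 (ΔE2 replicate 1) in PDGFB, with 0.0043 and 0.0645 without control replicate 1 and ΔE2 replicate 3. In PLXND1 it moved from -0.47 (ΔE2 replicate 2) to 0.0226 (ΔE2 replicate 3), with 0.0146 without ΔE2 replicate 1. The difference of UNC5B between the deletions moved from -0.15 (ΔE2 replicate 2) to 0.31 (ΔSE12313-b replicate 2), with -0.0817 and -0.0306 without ΔSE12313-b replicates 1 and 3. The number of tip cell genes called in ΔE2 (1) was 2 with centred libraries and with voom, and 1 to 2 on leaving out a library. In ΔSE12313-b (2) it was 1 with a pseudocount of 1, with genes above 0 in at least 2 libraries, with the replicate block and without the trend, and 0 to 2 on leaving out a library. With centred libraries, with voom and without ΔSE12313-b replicate 2 it stayed at 2, but with other genes. There 0 were higher and 2 lower (ESM1 and UNC5B), and CD34 was no longer called. Between the deletions (1) the number was 2 with genes above 0 and with voom, and 1 to 2 on leaving out a library. Over all genes a pseudocount of 1 gave 1718, 2004 and 240 calls in place of 2697, 3112 and 583, and the replicate block gave 2530, 2962 and 523. The block, for numbers that do not pair the samples, changed the call of CD34 in ΔSE12313-b and of no other member. The cause was not tested. UNC5B has no value where the mean had to reach 1 FPKM. Low read counts limit ANGPT2, CXCR4 and UNC5B, and 2 controls limit all comparisons with control.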
